A study of Mus musculus with 21 samples.

Results

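Retinoic acid is made, bound, sensed and destroyed inside embryonic tissue by a small set of gene products, and 10 of them were followed here by gene symbol among the 24594 genes of the count tables. They were the synthesising enzymes Aldh1a2 and Aldh1a3, the degrading enzymes Cyp26a1, Cyp26b1 and Cyp26c1, the nuclear receptors Rara, Rarb and Rarg, and the intracellular binding proteins Crabp1 and Crabp2. The study followed control of the Hoxa genes in mouse cranial neural crest cells (CNCCs), which migrate into the face and pharyngeal arches and form much of their skeleton and connective tissue. In the stage series, RFP-positive CNCCs of Wnt1::Cre;ROSA-RFP embryos were sorted at E10.5 from PA2, the second of the pharyngeal arches, and at E12.5 and E14.5 from its derivative, the pinna of the ear. In the genotype series, PA2 and the third arch (PA3) were dissected from E10.5 wild-type (WT) embryos and from homozygous HIRE1del embryos, which lack a distant enhancer region of the Hoxa cluster. Each of the 7 groups held 3 libraries, all from pooled embryos.

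The Wnt1 promoter drives Cre in premigratory neural crest, so that all 3 groups of the stage series carried the same Cre and reporter. Cells were released with trypsin at E10.5 and E12.5 and with papain at E14.5. Age and digestion therefore cannot be told apart from E12.5 to E14.5. The source tissue changed between E10.5 and E12.5, where age and tissue cannot be told apart. Age, tissue and digestion all changed between E10.5 and E14.5. The HIRE1 deletion was made by CRISPR/Cas9 in C57Bl/6J zygotes and kept on a mixed C57Bl/6J;CD1 background, and HIRE1del embryos came from heterozygote crosses. The methods do not say which cross gave the WT arches of this series. No sort is described for the arches of the genotype series.

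Retinoic acid is made from retinaldehyde by ALDH1A enzymes, of which ALDH1A2 serves most of the early embryo, and it is oxidised to inactive products by the CYP26 enzymes, so that a cell's exposure depends on both. Inside the cell it is carried by CRABP1 and CRABP2, and it acts through RARα, RARβ and RARγ, which bind DNA as heterodimers with RXR receptors. The hindbrain and the pharyngeal arches depend on controlled retinoic acid exposure, and Hox genes, Cyp26a1 and Rarb are textbook targets of the receptors.

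On GRCm38, Aldh1a2 lies on chromosome 9 (71215789 to 71296243) and Aldh1a3 on chromosome 7 (66390890 to 66427517). Cyp26c1 (37685581 to 37693398) and Cyp26a1 (37697798 to 37701536) are neighbours on chromosome 19, separated by 4399 bases, and Cyp26b1 lies on chromosome 6 (84571414 to 84593908). Rara is on chromosome 11 (98927818 to 98974942), Rarb on chromosome 14 (16430839 to 16819156) and Rarg on chromosome 15 (102234938 to 102257517). Crabp1 is on chromosome 9 (54764748 to 54773110) and Crabp2 on chromosome 3 (87948666 to 87953376).

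RefSeq promoter windows of the same build were given for 8 of the 10 genes, all but Aldh1a3 and Crabp2, in 12 windows. They were searched on both strands for DR5, a direct repeat of AGGTCA (or, in place of it, AGTTCA or else GGGTCA or else GGTTCA) in any pairing with a spacer of 5 bases of any kind, which is the classical binding pattern of an RAR with its RXR partner. DR5 was found in 2 of the 12 windows, those of Rarb and Cyp26a1, and in 0.0974% of all 32851 promoter windows. The same repeat with 1 or 2 bases between the copies was found in none of the 12 windows and in 0.222% and 0.268% of all. The 120 bases before the start of both genes are shown because they hold the pattern, read along the gene's own strand with DR5 in capitals. The Rarb stretch is chr14:16575477-16575596 on the minus strand, with the repeat 53 to 37 bases before the start, and the Cyp26a1 stretch is chr19:37697688-37697807 on the plus strand, with the repeat in the opposite orientation 32 to 16 bases before the start.
Rarb: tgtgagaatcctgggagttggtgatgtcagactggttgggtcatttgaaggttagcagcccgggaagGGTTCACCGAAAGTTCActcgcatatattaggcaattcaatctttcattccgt
Cyp26a1: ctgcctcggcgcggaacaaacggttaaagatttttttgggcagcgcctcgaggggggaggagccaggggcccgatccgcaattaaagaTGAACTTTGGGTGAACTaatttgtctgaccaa
A match of letters is a description of the window and says nothing of binding in these cells.

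Libraries held 25.8 M to 32.2 M counts (M, 1000000), except the E14.5 pinna libraries with 47.5 M to 49.1 M. Levels are given as CPM, counts per 1000000 after TMM scaling, and as RPKM, the same per kilobase of exon, where genes are compared with each other. Sorted cells and dissected arches differed in what else they held. The 6 erythroid markers summed to 1.83 to 11.6 CPM in the sorted cells, to 1526 to 3308 CPM in PA2 and to 12360 to 24432 CPM in PA3. The 7 epithelial markers summed to 8.20 to 45.4 CPM in the sorted cells and to 206 to 561 CPM in the arches. Markers of crest mesenchyme (Twist1, Prrx1, Prrx2, Pdgfra, Dlx2 and Dlx5) were above 1 CPM in all 7 groups. In the sorted cells the 4 pharyngeal endoderm markers (Pax1, Foxa2, Nkx2-1 and Shh) summed to at most 0.206 CPM at E10.5 and 0.168 CPM at E14.5. At E12.5 they summed to 1.14 to 1.77 CPM, nearly all of it Pax1. Shh was at 0 in the sorted cells but for 0.0219 CPM in 1 E14.5 library. The arch libraries, labelled as cranial neural crest, thus also held transcripts of blood, epithelium and endothelium, and in such mixed tissue fewer cells of a type and less RNA per cell cannot be told apart.

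Sorted cells of E10.5 PA2 held transcripts of both Cyp26a1 and Cyp26b1, while in sorted cells of the pinna Cyp26a1 was near 0 and Cyp26b1 was higher. Cyp26a1, a rapidly retinoic acid induced member of the family, measured 29.4, 23.4 and 17.3 CPM in the E10.5 PA2 libraries, from 878, 682 and 529 counts. It measured 0.223, 0.131 and 0.170 CPM at E12.5, from 6, 4 and 5 counts, and at E14.5 the libraries held 4, 0 and 1 counts. All E10.5 libraries were therefore far above all later ones. The summed counts were 135-fold lower at E12.5 than at E10.5 (95% exact binomial interval 81.7 to 242) and 646-fold lower at E14.5 (276 to 1990), intervals that cover counting error only. The E10.5 to E12.5 change was called by edgeR (log2 fold change -7.05, SE 0.35, adjusted p 2.51e-08). The further change from E12.5 to E14.5 (-2.15, SE 0.81, adjusted p 0.0363) rested on these few counts. It was -3.61 without E14.5 replicate 1, which also took the change from E10.5 to E14.5 from -9.20 to -10.66, and its call was lost without E12.5 replicates 1 or 3 or E14.5 replicates 2 or 3 (highest adjusted p 0.109). Cyp26a1 passed the filter on low values through its E10.5 libraries alone, so that a difference between stages was fixed by the filter.

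Cyp26b1, the family member known for limiting retinoic acid in skeletal mesenchyme and gonads, went the other way. It measured 25.4, 42.5 and 56.1 CPM at E10.5, 357, 396 and 398 CPM at E12.5, and 357, 338 and 361 CPM at E14.5. The E10.5 libraries were below all pinna libraries, and the ranges of E12.5 and E14.5 overlapped. Its log2 fold change was 3.22 from E10.5 to E12.5 (SE 0.21, edgeR adjusted p 2.12e-07), a 9.29-fold rise, and -0.13 from E12.5 to E14.5 (SE 0.19, adjusted p 0.588). Cyp26c1 did not pass the filter in the sorted cells. It had 19, 25 and 21 counts at E10.5, 3, 2 and 2 at E12.5 and 0, 2 and 0 at E14.5. Its summed counts were 9.01-fold lower at E12.5 than at E10.5 (counting interval 4.13 to 23.3).

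Per exonic length, the CYP26 family total was 19.9 ± 0.317 RPKM at E10.5, 71.8 ± 4.28 at E12.5 and 65.8 ± 2.22 at E14.5 (mean ± SD, n = 3 each). Cyp26a1 made up 59.1% ± 14.9 of that total at E10.5 and 0.124% ± 0.0402 at E12.5, while Cyp26b1 made up 38.8% ± 14.8 and 99.8% ± 0.065. Without division by length the order at E10.5 was turned, with 37.1% for Cyp26a1 and 61.7% for Cyp26b1. The E10.5 libraries were unlike each other in this respect, with Cyp26a1 shares of 44.5% to 74.4% around an almost constant total. Replicate 1, with the highest Cyp26a1, had the lowest Cyp26b1, and replicate 3 the reverse.

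**Figure D1:**
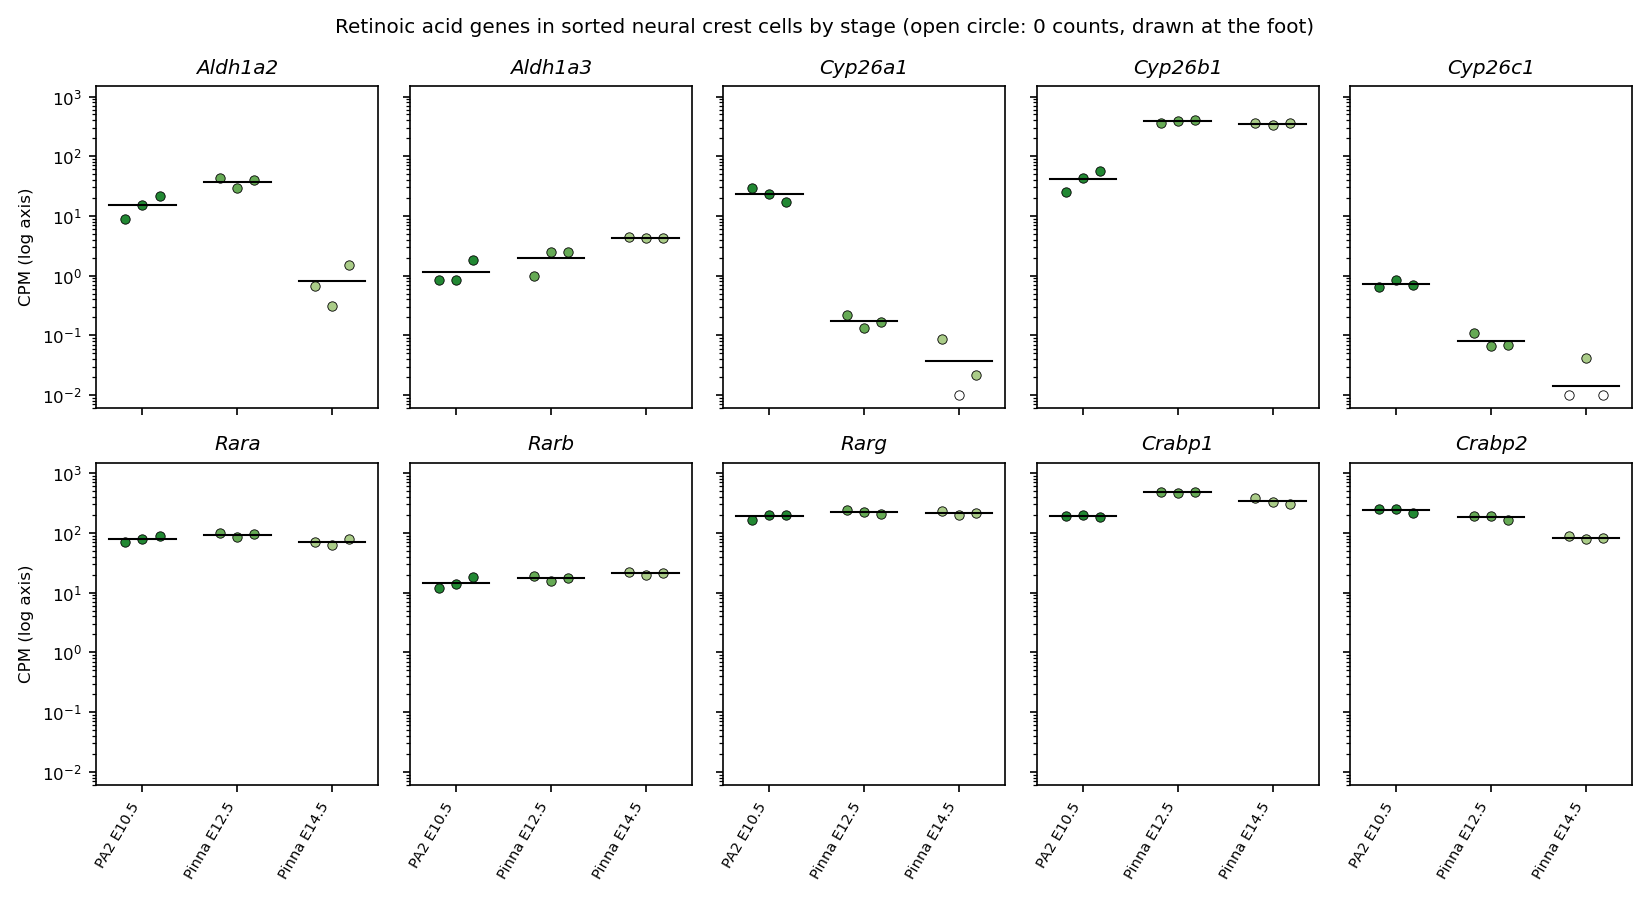
CPM on a log axis of the 10 retinoic acid genes in the 3 libraries of each stage group of sorted cells, with a line at the group mean. Open circles stand for libraries with 0 counts. Cyp26a1 dropped from 17.3 to 29.4 CPM at E10.5 to at most 0.223 CPM later, while Cyp26b1 stood at 338 to 398 CPM in the pinna.

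The synthesising enzymes also differed between stages. Aldh1a2, the main embryonic retinaldehyde dehydrogenase, measured 8.83, 15.1 and 21.8 CPM at E10.5, 43.7, 29.3 and 39.6 CPM at E12.5, and 0.683, 0.315 and 1.49 CPM at E14.5. The 3 groups did not overlap, with the E12.5 pinna highest and the E14.5 pinna lowest. Its log2 fold change was 1.30 from E10.5 to E12.5 (SE 0.33, edgeR adjusted p 0.00453) and -5.50 from E12.5 to E14.5 (SE 0.44, adjusted p 1.00e-06). Without E14.5 replicate 3 the fall from E12.5 was -6.23 and that from E10.5, otherwise -4.21, was -4.93. Aldh1a3, which makes retinoic acid in eye and nasal epithelia among others, was low throughout and highest last. It measured 0.836, 0.858 and 1.83 CPM at E10.5, 1.00, 2.45 and 2.45 CPM at E12.5, and 4.41, 4.31 and 4.36 CPM at E14.5. Only the E14.5 libraries stood apart (log2 fold change from E12.5 1.14, SE 0.34, edgeR adjusted p 0.0125), since E10.5 and E12.5 overlapped (0.74, SE 0.37, adjusted p 0.098). Without E10.5 replicate 3 or E12.5 replicate 1 that first step was called too, with adjusted p 0.0153 and 0.014.

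Other cell types moved along these stages as well. Epithelial markers summed to 9.43 to 11.7 CPM at E10.5, 8.20 to 9.89 at E12.5 and 27.0 to 45.4 at E14.5, where Aldh1a3 was highest. Within that list Cdh1 (0.201 to 0.343 CPM at E10.5, 11.1 to 17.6 CPM at E14.5), Krt5 and Krt14 were higher at E14.5, while Epcam (3.58 to 4.39 and 1.06 to 1.53 CPM) and Krt18 (5.08 to 6.18 and 0.315 to 1.16 CPM) were lower and Krt8 was under 1 CPM at every stage. Melanocyte markers (Dct, Pmel, Mlana and Tyr) summed to 2.04 to 4.36, 21.9 to 33.7 and 285 to 330 CPM, and endothelial markers to 6.79 to 8.99, 19.0 to 26.2 and 108 to 173 CPM. The endothelial sum followed Kdr (2.97 to 3.67, 16.1 to 19.6 and 101.5 to 167 CPM), while Pecam1, Cdh5, Tek and Emcn were each at 0 to 3.19 CPM at every stage. Of the 7 markers of pharyngeal mesoderm and muscle, 6 were below 1 CPM at every stage, and Osr1, like Aldh1a2, was highest at E12.5, with 17.9, 27.7 and 38.3 CPM at E10.5, 115 to 119 CPM at E12.5 and 18.7 to 22.5 CPM at E14.5, where unlike Aldh1a2 it was within its E10.5 range. The part of other cells in the changes of Aldh1a2 and Aldh1a3 was not tested.

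Both binding proteins were abundant, and their balance shifted. Crabp1 measured 189, 198 and 187 CPM at E10.5, 483, 467 and 484 CPM at E12.5, and 381, 328 and 310 CPM at E14.5. It rose 2.50-fold from E10.5 to E12.5 (log2 fold change 1.32, SE 0.075, edgeR adjusted p 6.27e-08) and then fell by 0.49 on the log2 scale (adjusted p 0.000127). Crabp2, which delivers retinoic acid to the receptors, measured 248, 249 and 219 CPM at E10.5, 194, 191 and 162 CPM at E12.5, and 87.3, 79.1 and 82.2 CPM at E14.5. Its log2 fold changes were -0.39 from E10.5 to E12.5 (SE 0.081, edgeR adjusted p 0.00117) and -1.14 from E12.5 to E14.5 (SE 0.082, adjusted p 4.77e-07). The 3 groups were apart from each other for both genes. Per length, Crabp1 was 56.9% ± 1.36 of the pair at E10.5, 81.2% ± 1.64 at E12.5 and 87.1% ± 0.842 at E14.5, and without division by length the shares were 44.5%, 72.4% and 80.3%.

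The receptors changed far less than the enzymes. Rarg, the most abundant of them, measured 166, 198 and 202 CPM at E10.5, 241, 223 and 209 at E12.5, and 233, 197 and 217 at E14.5. Its groups came close to or overlapped each other, and the call from E10.5 to E12.5 (log2 fold change 0.25, SE 0.090, edgeR adjusted p 0.0282) was lost without E10.5 replicate 1 (adjusted p 0.114), E12.5 replicate 1 (0.101) or E12.5 replicate 2 (0.0533). Rara measured 70.5, 78.2 and 88.0 CPM at E10.5, 99, 84.3 and 96.8 at E12.5, and 70.0, 62.8 and 79.7 at E14.5. It fell from E12.5 to E14.5 (-0.40, SE 0.10, adjusted p 0.00578), and its levels at E10.5 and E14.5 overlapped. Rarb measured 12.1, 13.9 and 18.0 CPM, then 18.9, 15.5 and 17.6, then 22.1, 19.4 and 21.6, and rose by 0.52 from E10.5 to E14.5 (SE 0.14, adjusted p 0.0041). Of the summed RAR level per length, Rarg held 68.0% ± 1.27, 68.0% ± 2.21 and 71.4% ± 1.82 in the order of the stages, Rara 27.8%, 27.7% and 22.9%, and Rarb 4.26%, 4.26% and 5.65%.

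Rarb shares 1793 of its 5265 exon bases with Top2b, a topoisomerase gene on the opposite strand, and no other of the 10 genes shares exon bases with a neighbour. Top2b at its mean density would place 69.9 to 129 CPM on the shared bases, while Rarb measured 9.59 to 21.3 CPM over all its exons on the same scale of library totals in the 21 libraries. Genes sharing exon bases with a well expressed gene on the opposite strand, Rarb among them, were compared in the same way. Against the counts that unstranded counting of the partner would give, their median was 0.138 times in the stage series. In the genotype series it was 1.17 times. Rarb itself stayed below the counts that Top2b would place there in all 21 libraries, and the part of Top2b reads in its counts was not tested. With that median, Rarb is least certain among the 10 in the genotype series.

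**Figure D2:**
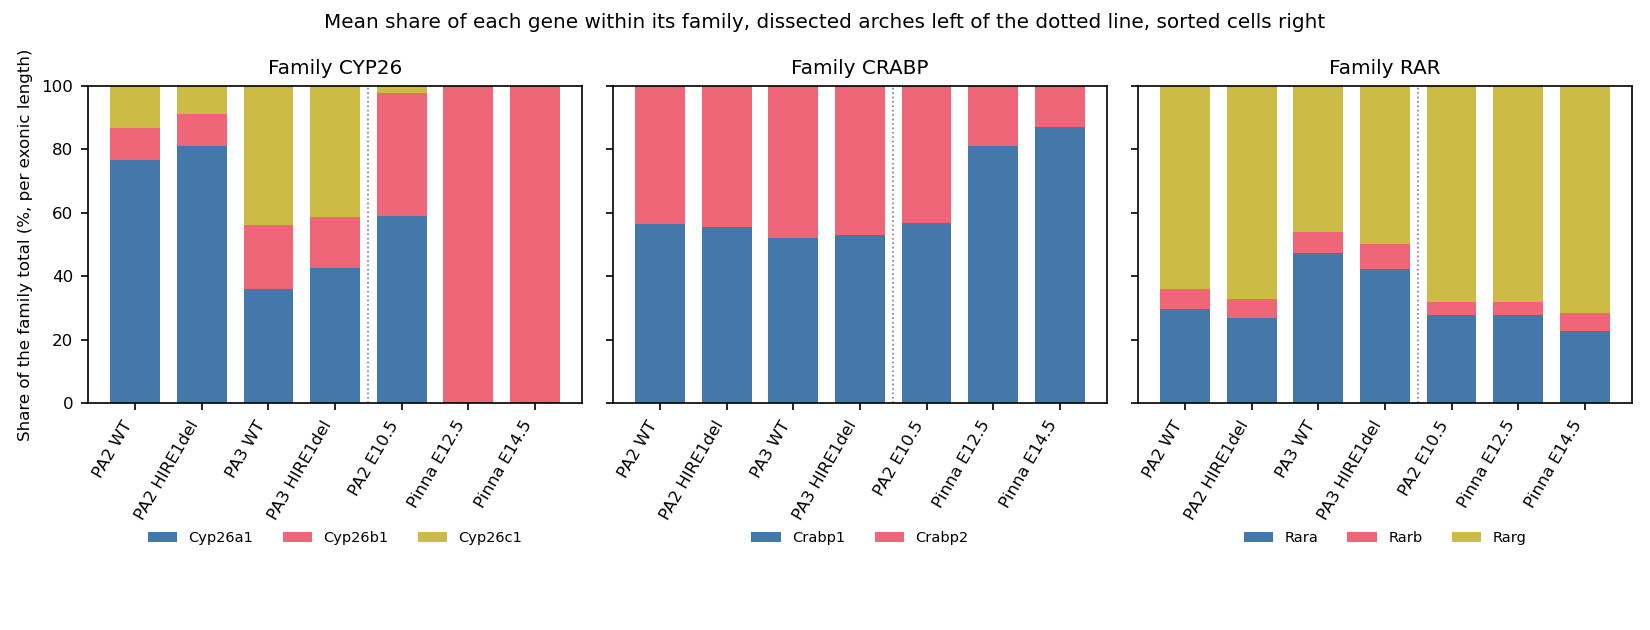
Mean share in percent of each gene in the summed level per exonic length of its family, for the CYP26 enzymes, the CRABP proteins and the RAR receptors in the 7 groups, 3 libraries each. In sorted cells, Cyp26b1 took 38.8% of the CYP26 total at E10.5 and 99.8% at E12.5, Crabp1 went from 56.9% to 87.1% of the CRABP total, and Rarg stayed between 68.0% and 71.4% of the RAR total.

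Between these stages most genes of the tables were called, so that calls alone set these genes apart little. From E10.5 to E12.5, 6 of the 9 genes tested were called, beside 68.8% of 13438 genes, and 4 changed at least 2-fold, beside 21.6%. From E12.5 to E14.5, 6 of 9 were called beside 65.7%, with 4 at least 2-fold beside 19.7%. From E10.5 to E14.5, 7 of 9 were called beside 82.0%, with 5 at least 2-fold (Aldh1a2, Aldh1a3, Cyp26a1, Cyp26b1 and Crabp2) beside 39.3%. The medians of the 9 log2 fold changes were 0.25, -0.40 and 0.19 in these 3 comparisons, beside 0.01, -0.01 and 0.02 over all genes tested. Cyp26a1 was among the genes called and changed at least 2-fold in each of them. It passed the filter through its E10.5 libraries alone, so that its place in the counts against E10.5 was fixed by the filter.

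The other retinoid genes of the sorted cells were counted from fixed lists. Of 14 genes of retinoid uptake and metabolism, 8 were tested, and 7 were called between E10.5 and E14.5 beside 82.0% of all genes, 4 higher and 3 lower, with a median log2 fold change of 0.20. Stra6, the membrane receptor for retinol uptake, fell by 1.81 on the log2 scale, nearly all of it after E12.5 (-1.96 from E12.5 to E14.5). Dhrs3, which turns retinaldehyde back to retinol, rose by 1.14, Rdh11 rose by 0.83 and Dhrs4 fell by 0.74. Rdh10, the enzyme that makes retinaldehyde, was not called (0.24, adjusted p 0.109). Fabp5, a fatty acid and retinoic acid carrier, fell by 1.18 to E12.5 and rose by 1.33 to E14.5, which left it 0.15 above E10.5, a call lost under 6 alternatives (highest adjusted p 0.169). Adh7, a retinol-oxidising dehydrogenase, had 0 counts in the E10.5 libraries and 108 and 332 counts in all at E12.5 and E14.5, at least 37.1-fold and 71.6-fold over a floor of 3 counts for the group. Adh7, among the 4 called higher, passed the filter through the pinna libraries alone, so that a difference between stages was fixed by the filter. Aldh1a1, Adh1, Rbp4, Lrat, Bco1 and Dhrs9 did not pass the filter.

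Of 10 receptor partners and cofactors, 8 were tested and 7 were called between E10.5 and E14.5 beside 82.0% of all genes, all of them higher, with a median of 0.44. Of all genes tested, 5646 were called higher and 5378 lower. Rxra, the most abundant RXR, measured 157 to 169 CPM at E10.5 and 219 to 251 CPM at E14.5, a rise of 0.55 on the log2 scale. Rxrg, the RXR known from muscle and nervous tissue, rose from 0.275 to 0.784 CPM to 3.78 to 4.34 CPM, a log2 fold change of 3.02 in a gene that passed the filter through the pinna libraries alone. Among coactivators, Ncoa1 rose by 2.08, mostly before E12.5 (1.83), Ncoa2 by 0.87 and Ncoa3 by 0.24, and the corepressors Ncor1 and Nrip1 rose by 0.22 and 0.18, the last after a fall of 0.39 at E12.5 and with its call lost under 10 alternatives (highest adjusted p 0.186). Rxrb and Ppard were listed at or near 0 in all sorted libraries.

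Of 10 textbook retinoic acid responsive genes, 7 were tested in the sorted cells and 5 were called between E10.5 and E14.5 beside 82.0% of all genes, 3 higher and 2 lower, with a median of 0.47. Nr2f1 and Nr2f2, orphan receptors that retinoic acid induces in many cells, fell by 4.28 and 3.53, from 403 to 441 CPM to 18.4 to 24.1 CPM and from 91.1 to 99.3 CPM to 7.16 to 8.87 CPM. Meis1 (0.68) and Meis2 (0.47) rose. Tgm2 fell by 2.57 to E12.5 and rose by 2.06 to E14.5. Members of this list therefore moved in both directions along the stages.

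**Figure D3:**
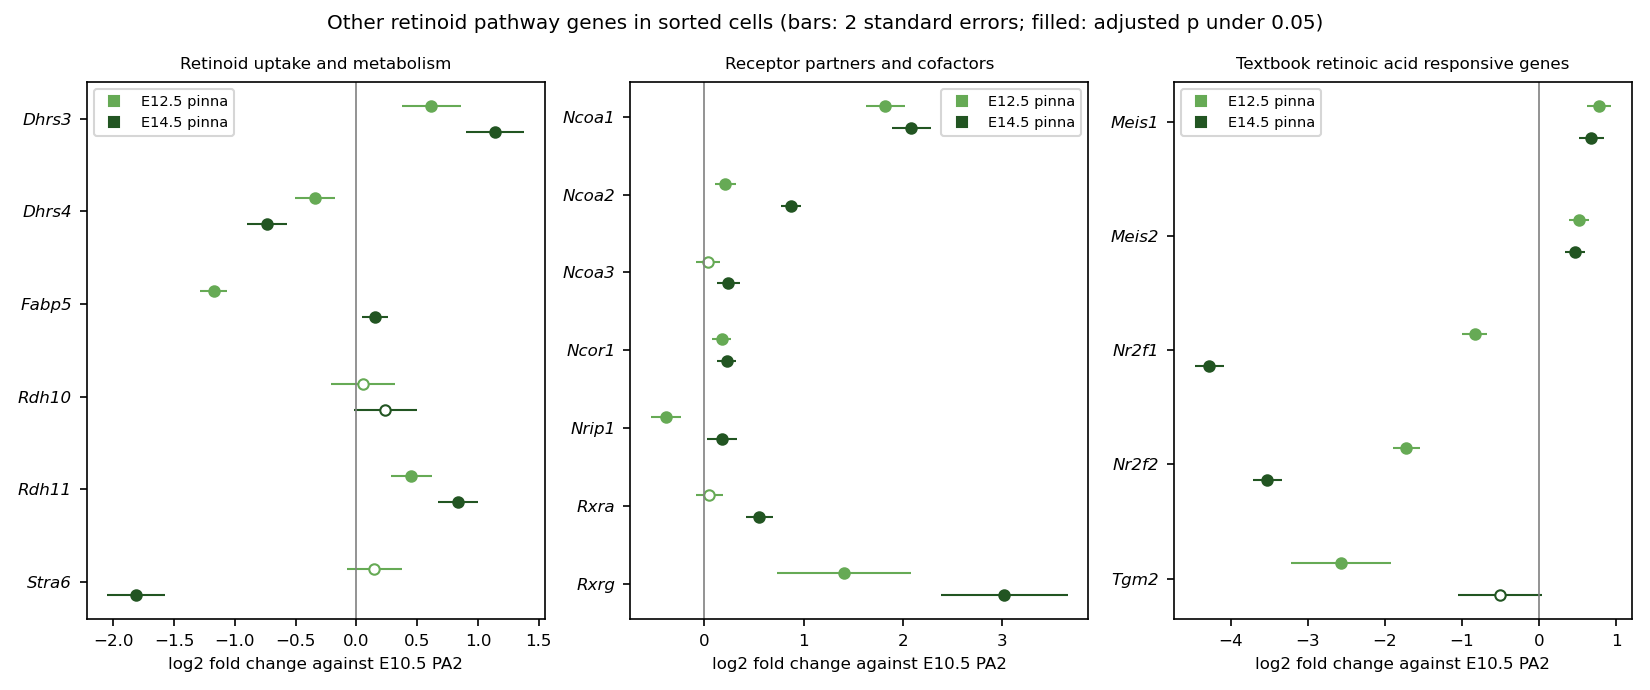
Log2 fold change against E10.5 PA2 of the other retinoid pathway genes tested in sorted cells, 1 panel for each list, with bars of 2 standard errors and filled points where the edgeR adjusted p was under 0.05. Adh7, with 0 counts at E10.5, and 4 genes not reported here are left out, and Nr2f1 and Nr2f2 lie furthest below 0 at E14.5 (-4.28 and -3.53).

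Within E10.5, PA3 held more of Cyp26b1 and Cyp26c1 than PA2 and less of Rarg, Crabp1 and Crabp2. Cyp26c1 measured 4.41, 5.72 and 2.06 CPM in PA2 WT and 22.4, 23.4 and 14.9 CPM in PA3 WT, a 5.00-fold difference with no overlap (log2 fold change 2.32, SE 0.33; adjusted p 0.000159 by edgeR). In HIRE1del the same comparison gave 2.74, 1.13 and 1.66 CPM against 12.4, 20.6 and 15.0 CPM (3.11, SE 0.37, adjusted p 3.41e-05). Cyp26b1 measured 6.12, 11 and 10 CPM in PA2 WT and 35.8, 26.5 and 22.3 CPM in PA3 WT (1.64, SE 0.32, adjusted p 0.00141). Its HIRE1del values were 4.28, 4.21 and 10.6 CPM in PA2 and 20.5, 20.3 and 14.0 CPM in PA3 (1.52, SE 0.33, adjusted p 0.00318, and 2.10 without PA2 replicate 3). The groups of both arches did not overlap for either gene in either genotype. Cyp26a1, the neighbour of Cyp26c1 on chromosome 19, was lower on average in PA3, with 29.7, 25.6 and 22.2 CPM in PA2 WT and 19.3, 21.7 and 15.2 CPM in PA3 WT (-0.46, SE 0.21, adjusted p 0.111, and 0.0315 when the libraries of these groups were fitted alone). Per length, Cyp26a1 held 76.6% ± 5.05 of the CYP26 total in PA2 WT and 36.2% ± 2.49 in PA3 WT, Cyp26b1 10.2% ± 3.62 and 20.1% ± 3.00, and Cyp26c1 13.3% ± 4.83 and 43.8% ± 1.96. Without division by length the PA3 WT shares were 41.9% for Cyp26b1, 30.0% for Cyp26c1 and 28.1% for Cyp26a1. The family total was 17.0 ± 2.44 RPKM in PA2 WT and 26.3 ± 5.14 RPKM in PA3 WT.

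Rarg, the RAR found in precartilage and crest mesenchyme, measured 96.7, 120 and 117 CPM in PA2 WT and 46.2, 58.8 and 69.6 CPM in PA3 WT, a 1.91-fold difference (log2 fold change -0.94, SE 0.13, adjusted p 0.000164 by edgeR). In HIRE1del its log2 fold change was -1.07 (SE 0.13, adjusted p 5.94e-05). Crabp1 measured 151, 155 and 141 CPM in PA2 WT and 113, 96.6 and 96.1 CPM in PA3 WT (-0.55, SE 0.085, adjusted p 0.000294), and -0.65 in HIRE1del. Crabp2 measured 186, 192 and 192 CPM in PA2 WT and 153, 145 and 163 CPM in PA3 WT (-0.31, SE 0.060, adjusted p 0.00151), and -0.50 in HIRE1del. The arches did not overlap for these 3 genes. With the fall of Rarg, Rara and Rarg took nearly equal shares of the RAR level in PA3 WT, 47.4% ± 3.24 and 45.8% ± 3.31, against 29.8% ± 1.26 and 64.1% ± 0.917 in PA2 WT.

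Rara itself was close in both arches, with 48.9, 56.6 and 53.1 CPM in PA2 WT and 57.6, 58.6 and 66.9 CPM in PA3 WT (log2 fold change 0.21, SE 0.072, edgeR adjusted p 0.0387). That call was lost without PA2 replicate 1 (adjusted p 0.147), PA2 replicate 3 (0.0828) or PA3 replicate 3 (0.172), and Rara was at 0.01 in HIRE1del (adjusted p 0.952). Rarb was not called in either genotype (-0.33, adjusted p 0.104, and -0.26, adjusted p 0.204), though it was called in WT without PA2 replicate 1 (adjusted p 0.047). Aldh1a2 ranged from 1.03 to 3.36 CPM over both WT arches with close means (2.04 CPM each), and Aldh1a3 from 1.70 to 4.68 CPM. In HIRE1del, Aldh1a2 was -0.93 (adjusted p 0.226) and Aldh1a3 0.66 (adjusted p 0.18) in PA3 against PA2. With the replicate number of the labels as a block these were -0.84 (adjusted p 0.198) and 0.73 (adjusted p 0.0822). With genotype and replicate number together as a block, which pairs the arches within each genotype, they were -0.80 (adjusted p 0.0234) and 0.71 (adjusted p 0.0289). Aldh1a3 was also called without PA2 HIRE1del replicate 3 (1.12, adjusted p 0.0348), while Aldh1a2 was then 0.06 (adjusted p 0.944).

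In all, 6 of the 10 genes were called between the WT arches beside 36.5% of 14383 genes, 2 of them at least 2-fold beside 8.33%. In HIRE1del 5 were called beside 33.4%, 3 of them at least 2-fold beside 8.19%. The medians of the 10 log2 fold changes were -0.17 and -0.13, beside 0.00 over all genes in both comparisons.

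**Figure D4:**
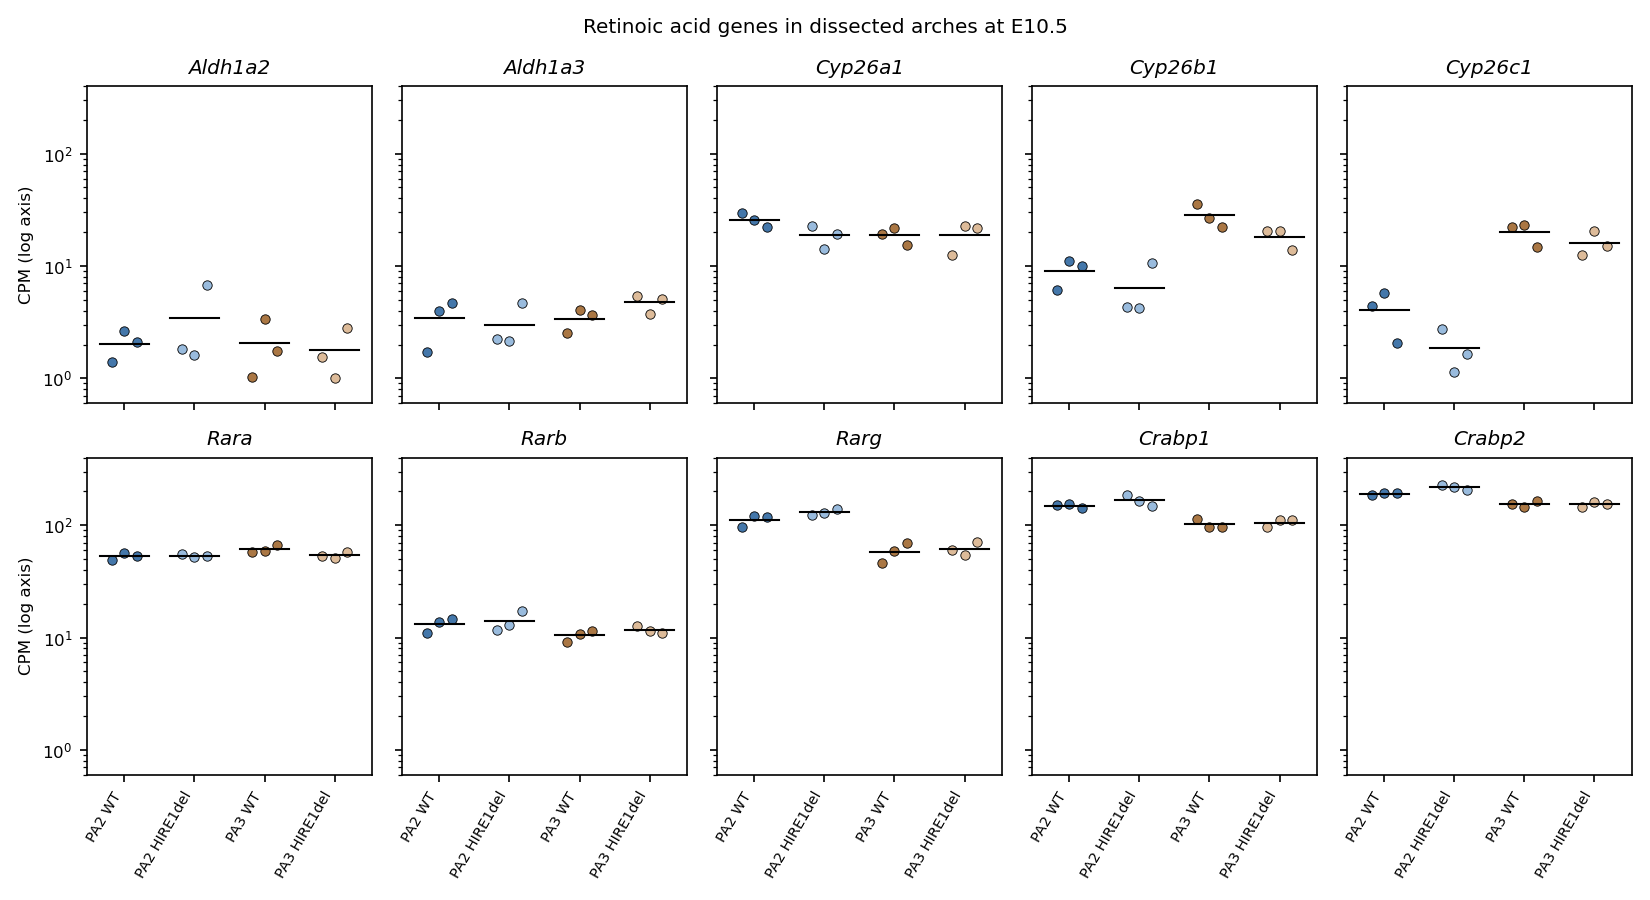
CPM on a log axis of the 10 retinoic acid genes in the 12 libraries of dissected arches, with a line at each group mean of 3. The PA3 points of Cyp26b1 (14.0 to 35.8 CPM) and Cyp26c1 (12.4 to 23.4 CPM) lie above all PA2 points, and those of Rarg (46.2 to 71.3 CPM) below them.

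The arches also differed in the tissues they held. Summed crest mesenchyme markers were 1010 to 1151 CPM in PA2 and 656 to 873 CPM in PA3, lower in PA3 as were Rarg, Crabp1 and Crabp2. Within that list Prrx2 went the other way (34.7 to 53.2 CPM in PA2, 56.9 to 69.0 CPM in PA3). Summed cartilage markers were lower in PA3 too (784 to 1051 CPM in PA2, 613 to 739 CPM in PA3), with Col2a1 and Sox9 lower and Acan overlapping. Higher in PA3, as were Cyp26b1 and Cyp26c1, were the sums of epithelial markers (206 to 244 CPM in PA2, 371 to 561 CPM in PA3), of pharyngeal endoderm markers (10.1 to 13.0 and 22.2 to 40.9 CPM, with Nkx2-1 at 0 in PA2), of neuronal markers (15.1 to 28.4 and 46.7 to 146 CPM) and of the erythroid markers given above. Within the epithelial list Epcam, Cdh1, Krt8 and Krt18 were higher in PA3, while Krt14 was lower (1.16 to 2.73 CPM in PA2, 0.0765 to 0.348 CPM in PA3). Krt5 was lower on average in PA3, and Trp63 overlapped, as did Shh of the endoderm list. Endothelial markers summed to 237 to 249 CPM in PA2 and 264 to 294 CPM in PA3. Of these Pecam1, Cdh5, Tek and Emcn were higher in PA3, while Kdr overlapped (93.9 to 98.4 CPM in PA2, 79.5 to 96.5 CPM in PA3). The part of these tissues in the differences between arches was not tested.

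Other retinoid genes differed between the arches too. Of 9 uptake and metabolism genes tested, 4 were higher in PA3 WT and none lower, beside 36.5% of all genes called, with a median of -0.05. They were Rbp4, the circulating retinol carrier (log2 fold change 4.00, with 14.4 CPM in PA3 replicate 1 and 3.86 and 3.77 CPM in the others, and a range of 3.06 to 4.39 over the alternatives, in a gene that passed the filter through PA3 alone), Aldh1a1, a further retinaldehyde dehydrogenase (1.47), Rdh10 (0.38) and Dhrs4 (0.17). Aldh1a1 would not have passed the filter on its PA2 libraries alone. In HIRE1del Rbp4 (3.05) and Rdh10 (0.54) were higher in PA3 and Stra6 (-0.62) lower. Of 8 partners and cofactors, 4 were called between the WT arches and 3 in HIRE1del, beside 36.5% and 33.4% of all genes, among them Rxrg (-0.73), Nrip1 (-0.24) and Ncor1 (-0.13), lower in PA3 WT, and Rxra (-0.23) and Nrip1 (-0.28), lower in PA3 HIRE1del. The calls of Dhrs4, Ncor1, Nrip1, Rxrg and Rdh10 in WT and of Rxra and Nrip1 in HIRE1del were each lost when single libraries were left out, with a highest adjusted p of 0.198 (Ncor1). Of 9 responsive genes, 8 were called in WT and 6 in HIRE1del, beside the same shares. In WT 4 were higher in PA3, among them Hoxd4, a Hox gene of more posterior tissue that passed the filter through PA3 alone (15.9-fold in summed counts, counting interval 9.57 to 28.2), Tgm2 (2.48) and Ripply3 (1.37), and 4 were lower, namely Nr2f1 (-1.003), Meis2 (-0.37), Meis1 (-0.35, lost without PA2 replicate 3 or PA3 replicate 1, highest adjusted p 0.0643) and Nr2f2 (-0.33). In HIRE1del, Hoxd4 (23.5-fold, 12.1 to 52.0), Tgm2 (2.56) and Meis2 (0.26) were among those higher and Nr2f1 (-0.73) and Nr2f2 (-0.49) lower.

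Loss of HIRE1 cut Hoxa2 in both arches, and none of the 10 retinoic acid genes was called with it. The study reported that HIRE1 is required for Hoxa2 and, in PA3, also for Hoxa3. Hoxa2 measured 73.4, 77.2 and 84.2 CPM in PA2 WT and 5.75, 4.75 and 7.09 CPM in PA2 HIRE1del, and 56.0, 63.0 and 65.1 CPM against 23.7, 25.6 and 22.1 CPM in PA3, so that each library bore out its label. With edgeR, 0 of the 10 genes were called in PA2 beside 0.438% of all genes, 0 in PA3 beside 0.216%, and 0 in the interaction of genotype and arch beside 0.0487%. DESeq2 and limma-voom also called 0 in these 3 comparisons. At an unadjusted p under 0.05 stood 2 genes in PA2 (Crabp2 and Cyp26c1), 1 in PA3 (Rara) and 1 in the interaction (Crabp2). Of all 14383 genes tested, 1233, 1400 and 794 stood there in the same 3 comparisons, so that these few genes are not set apart by it.

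How small an effect remained possible differed between the genes. For the well measured receptors and binding proteins, the estimates in PA2 were 0.02 (SE 0.073) for Rara, 0.22 (SE 0.13) for Rarg, 0.16 (SE 0.084) for Crabp1 and 0.19 (SE 0.059, edgeR adjusted p 0.324) for Crabp2. Crabp2 measured 229, 220 and 204 CPM in PA2 HIRE1del, all above the 186 to 192 CPM of WT, and Rarg 122 to 139 CPM, all above the 96.7 to 120 CPM of WT, in comparisons that did not pass the adjustment. In PA3 their estimates were -0.18 (SE 0.072, adjusted p 0.45), 0.09 (SE 0.14), 0.05 (SE 0.085) and 0.00 (SE 0.060). Rarb was at 0.08 (SE 0.15) in PA2 and 0.15 (SE 0.15) in PA3.

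The enzymes were less precisely measured. All 3 CYP26 estimates were below 0 in PA2, with Cyp26c1 at -1.12 (SE 0.39, edgeR adjusted p 0.412), Cyp26b1 at -0.51 (SE 0.33, adjusted p 0.73) and Cyp26a1 at -0.46 (SE 0.22, adjusted p 0.594). Their PA2 groups overlapped. In PA3 the estimates were -0.33 (SE 0.30), -0.63 (SE 0.30, adjusted p 0.539) and 0.02 (SE 0.22), with the Cyp26b1 groups apart. The CYP26 total per length was 11.7 ± 2.73 RPKM in PA2 HIRE1del, with a range of 8.63 to 13.8, against 14.2 to 18.6 in PA2 WT, and 17.3 to 27.0 against 20.4 to 29.3 in PA3. Aldh1a3 was at -0.21 (SE 0.36) in PA2 and 0.48 (SE 0.35) in PA3.

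Aldh1a2 rested on 1 library. It measured 1.39, 2.63 and 2.09 CPM in PA2 WT and 1.84, 1.60 and 6.80 CPM in PA2 HIRE1del, where replicate 3 stood alone. The log2 fold change was 0.74 (SE 0.55, edgeR adjusted p 0.774) with that library and -0.25 (adjusted p 0.897) without it. Replicate 3 also had the highest Cyp26b1 of its group (10.6 CPM) and the lowest Lin28a, an RNA-binding protein of early embryonic cells, with 41.6 CPM against 105 and 125 CPM. Its erythroid markers summed to 3308 CPM, against 1581 and 1960 CPM in the others. In the E10.5 sorted libraries Aldh1a2 was higher where Lin28a was lower (Lin28a 44.4, 23.8 and 16.4 CPM). The same held in PA3 HIRE1del, with Aldh1a2 at 1.53, 1.01 and 2.82 CPM and Lin28a at 68.2, 111 and 44.5 CPM. In the WT arches the orders differed, with Lin28a at 142, 83.7 and 63.4 CPM in PA2 and 115, 65.9 and 61.0 CPM in PA3, where Aldh1a2 was highest in replicate 2 of both. The part of this variation between libraries in the genotype estimates was not tested.

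**Figure D5:**
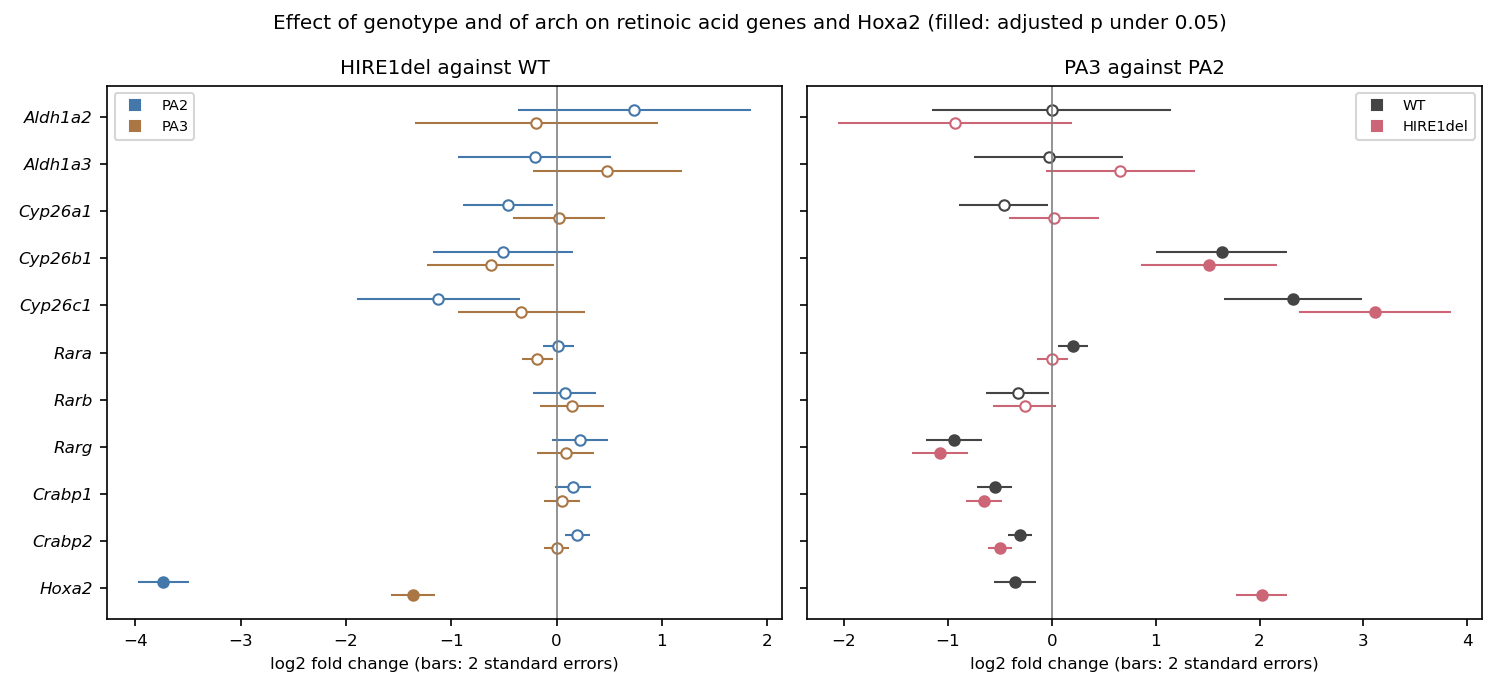
Log2 fold change with bars of 2 standard errors for the 10 retinoic acid genes and Hoxa2, for HIRE1del against WT in PA2 and PA3 (left) and for PA3 against PA2 in both genotypes (right), from 3 libraries a group. Points are filled where the edgeR adjusted p was under 0.05, which holds on the left for Hoxa2 alone (-3.74 in PA2 and -1.36 in PA3).

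Of the other retinoid genes, none of 9 uptake genes and none of 8 partners tested was called by edgeR for HIRE1 loss in either arch. At an unadjusted p under 0.05 stood 1 and 0 of them in PA2, beside 1233 of all 14383 genes. In PA3 these were 4 and 1, beside 1400. Of 9 responsive genes, 2 were called lower in PA2 beside 0.438% of all genes called, with a median of -0.36 beside -0.01 over all genes. They were Meis2 (-0.67, adjusted p 7.92e-06), also called in the interaction (-0.62, adjusted p 0.00151), and Meis1 (-0.51, adjusted p 0.0359), whose call was lost without any 1 of the 3 WT libraries or HIRE1del replicates 1 or 2 (highest adjusted p 0.202). Both are known Hoxa2 targets that the study also reported from these libraries, so that their direction here is not independent evidence. In PA3 none of the 9 was called, with 1 at an unadjusted p under 0.05 beside 1400 of all 14383 genes. All 9 estimates there were negative, with a median of -0.14 beside -0.002 over all genes.

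In marker sums, PA2 HIRE1del did not overlap PA2 WT for cartilage (967 to 1051 against 784 to 899 CPM), neuronal (15.1 to 21.6 against 24.8 to 28.4 CPM) and pharyngeal endoderm markers (10.1 to 10.8 against 11.1 to 13.0 CPM), and overlapped for crest mesenchyme and epithelium. The cartilage sum was nearly all Col2a1 (923 to 1006 against 745 to 860 CPM). Sox9 was apart too, Acan overlapped and Matn1 was at 0. Each neuronal marker overlapped when taken alone, as did Pax1, Shh and Foxa2 (1.58 to 2.22 against 1.63 to 1.89 CPM), with Nkx2-1 at 0. The part of these marker differences in the HIRE1del estimates was not tested.

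The E10.5 PA2 was measured in both series, once as sorted cells and once as dissected tissue, on different sequencers and with separate scaling, so that the levels are set side by side without a test. Per length, the receptors stood in the same order in both, Rarg at 44.2 ± 4.61 and 26.2 ± 3.04 RPKM, Rara at 18.1 ± 2.01 and 12.1 ± 0.892 RPKM, and Rarb at 2.79 ± 0.575 and 2.50 ± 0.366 RPKM. Crabp1 (239 ± 7.64 and 186 ± 8.52 RPKM) was above Crabp2 (181 ± 12.9 and 144 ± 2.73 RPKM) in both. Cyp26a1 was similar, at 11.8 ± 3.05 and 13.0 ± 1.89 RPKM. Cyp26b1 stood at 7.72 ± 2.87 RPKM in the sorted cells and at 1.69 ± 0.480 RPKM in the tissue, and Aldh1a2 at 6.74 ± 2.87 and 0.901 ± 0.274 RPKM. Aldh1a3 (0.254 ± 0.123 and 0.747 ± 0.336 RPKM) and Cyp26c1 (0.416 ± 0.0667 and 2.33 ± 1.06 RPKM) stood higher in the tissue. The tissue also held the epithelial markers given above, and the part of other cells in these differences was not tested.

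Genes with the most similar pattern were sought over the 7 group means of log2 CPM, with 0.5 CPM added and each centred within its own series. Among 12866 genes tested in both, those with the smallest root mean square difference were taken. For Cyp26a1 these were Lin28a (0.119) and Foxd2os (0.276), and for Cyp26b1 they were Wnt11, a secreted Wnt ligand (0.152), and Itgb3, an integrin subunit (0.198). Cyp26a1 and Lin28a were both below the added 0.5 CPM in the pinna groups, which brings their values there together. Wnt11 went from 6.94 ± 2.63 CPM at E10.5 to 81.6 ± 0.727 CPM at E12.5, and Itgb3 from 3.05 ± 0.847 to 36.1 ± 1.92 CPM. Aldh1a2 had no close match (Prss23, 0.413, and Zfp663, 0.457). The nearest to Aldh1a3 were Slc35d2 (0.0892) and Ppic (0.108), to Rarg Lpar1 (0.0881) and Mertk (0.101), to Crabp1 Rab30 (0.0751) and Phldb2 (0.0813), and to Crabp2 Wnk3 (0.0491) and Ypel1 (0.0534). Rara and Rarb varied by less than 1 on the log2 scale within each series (0.40 and 0.52 at most) and Cyp26c1 was not tested in the sorted cells, so that none was sought for them.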

How the data were processed

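RNA-seq gene counts of 21 libraries were used as deposited. Per the methods, the authors aligned reads to GRCm38/mm10 with QuasR and Rhisat2 and counted them per UCSC knownGene gene on the opposite strand, from 9 single-end libraries of the stage series and 12 paired-end libraries of the genotype series. The submitters' processing notes name bcl2fastq 2.17 and 2.20. Deposited values are whole-number counts per gene, not normalised, with exonic length beside them. The labels name an unstranded kit. Of 24594 genes, 18 had no symbol and were kept in library sizes.

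Groups were taken from the labels, and each series was fitted on its own. A gene entered the tests when 2 or more libraries reached 1 CPM (14383 in the genotype series, 13438 in the stage series) with edgeR 4.0.16 (R 4.3.3, TMM, quasi-likelihood test, standard error from the log2 fold change and F), and p-values were adjusted by Benjamini-Hochberg over all genes tested, with a threshold of 0.05. DESeq2 1.42.0 and limma-voom (limma 3.58.1) were alternatives, as were other scalings, filters, replicate blocks and leaving out libraries. The fits were tested on simulated counts. Libraries held 25.8 M to 49.1 M counts, and counting intervals cover counting error only. Replicates of a group differed beyond sampling noise (chi-square per degree of freedom 7.00 to 46.5).

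Replicate numbers paired PA2 with PA3 of the same genotype: deviations from group means correlated at r = 0.226 to 0.394 in the 6 pairs. The members, lists and marker genes were chosen with earlier results of these data known. All 10 members were named, list genes were named where called, and the 2 nearest genes by pattern were named for each member with a range of at least 1 on the log2 scale. Positions came from GENCODE M21 and promoter sequence from RefSeq (GRCm38.p6). The values of 4 genes of the lists are not reported here, though the list counts include them.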

Additional observations from a re-analysis of the deposited data

How the results depend on the processing

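The number of retinoic acid genes called kept within 1.5 times of its value under all 120 alternatives, and stayed at 0 for HIRE1 loss in PA2, in PA3 and in the interaction. Leaving out 1 library gave 5 to 6 genes between the arches in both genotypes, 5 to 9 from E10.5 to E12.5, 5 to 6 from E12.5 to E14.5 and 7 to 8 from E10.5 to E14.5. Over 1157 alternative tests of single genes, 14 lost a call and 17 gained one. The losses were Rara between the WT arches (5, with adjusted p up to 0.172), Rarg from E10.5 to E12.5 (4, up to 0.114) and Cyp26a1 from E12.5 to E14.5 (5). For Cyp26a1 the adjusted p was 0.0363, and it became 0.0841 with limma-voom, 0.105 and 0.0721 without E12.5 replicates 1 or 3, and 0.109 and 0.101 without E14.5 replicates 2 or 3. The pool block (genotype and replicate number together) added Aldh1a2 and Aldh1a3 between the HIRE1del arches and changed no other call. In the other comparisons same-numbered libraries did not pair (r = -0.144 to 0.257 between genotypes and -0.324 to 0.221 between stages, with 4 of 12 and 3 of 18 best matches to the own number), and there a replicate block left the number of calls as it was, with Rarg lost (adjusted p 0.0502) and Rara gained (0.0259) from E10.5 to E12.5. Library totals alone shifted all genes by up to 0.12 on the log2 scale.

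Sign changes occurred in 18 values, and their cause was not tested. Of these, only Aldh1a2 between the HIRE1del arches was called under any setting, with the pool block (-0.801, edgeR adjusted p 0.0234). Between the WT arches Aldh1a2 (0.000394) was -0.002 with DESeq2 size factors, -0.0126 without a filter, -0.00392 with filterByExpr, -0.00129 with the replicate block, -0.0641 with the pool block, -0.000246 with DESeq2 and -0.117 with limma-voom, and Aldh1a3 (-0.03) was 0.0146, 0.0214 and 0.0413 with the replicate block, the pool block and limma-voom. Rara between the HIRE1del arches was -0.0106 without a filter, Crabp2 in PA3 was -0.0195 with library totals, and Cyp26b1 in the interaction was -0.004 with limma-voom. Without 1 library, ranges for HIRE1 loss in PA2 were -0.25 to 1.08 (Aldh1a2), -0.672 to 0.0797 (Aldh1a3), -0.0364 to 0.0686 (Rara) and -0.0971 to 0.189 (Rarb), and in PA3 -0.687 to 0.357 (Aldh1a2), -0.121 to 0.245 (Cyp26a1), -0.0548 to 0.233 (Rarg) and -0.0383 to 0.0476 (Crabp2). In the interaction they were -0.0571 to 1.43 (Aldh1a2), -0.468 to 0.343 (Cyp26b1), -0.244 to 0.0414 (Rarb) and -0.00273 to 0.277 (Rarg). Between the WT arches they were -0.548 to 0.311 (Aldh1a2) and -0.344 to 0.257 (Aldh1a3), between the HIRE1del arches -1.43 to 0.0574 (Aldh1a2), -0.142 to 0.243 (Cyp26a1) and -0.0385 to 0.0417 (Rara), and from E12.5 to E14.5 -0.114 to 0.00841 (Rarg). At these depths Cyp26a1 after E10.5, Cyp26c1 in sorted cells and Adh7 rest on few counts.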
